A study of Mus musculus with 9 samples.

Results

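The T cell receptor alpha variable segments (Trav genes) were examined in immune cells of mouse melanomas, to see which segments the tumour-infiltrating T cells used and how evenly, and whether their use differed with antibody treatment. All genes whose symbol starts with Trav in the GENCODE M21 annotation of build GRCm38 were taken, and Trdv genes of the delta chain were not. Of 128 such annotated genes, 92 have a row in the deposited tables, among 22136 genes in all. The samples were CD45+ cells sorted from subcutaneous tumours of YUMM 2.1, a melanoma line described in the series title as driven by beta-catenin, grown in immunocompetent C57BL/6J mice. There were 3 libraries each from mice given an IgG isotype control, an antibody to B7-H3 (encoded by Cd276, a B7 family member) or to PD1 (a checkpoint receptor on activated T cells), all started at tumour volumes of 20 to 50 mm3. Mouse age, antibody dose and time of sampling are not given in the labels, and a combination of both antibodies named in the design was not analysed here. The labels do not say that the replicates are separate animals, so p-values measure only the spread between these samples.

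A T cell receptor alpha chain is put together in the thymus by joining a variable segment (Trav) to a joining segment (Traj), and splicing the joined exon to the constant gene Trac. Each T cell clone keeps its joined segment, so its descendants all transcribe the same Trav gene, and a clone that has divided many times adds to the count of that gene. Invariant natural killer T cells carry Trav11 joined to Traj18, and mucosal-associated invariant T cells carry Trav1 joined to Traj33. The Trav genes are interspersed with delta chain variable genes, and those with "-dv" in their names can serve in either chain. A large part of the mouse locus has been copied during evolution, and the letters d and n in a name mark the copies.

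The 92 listed segments lie on chromosome 14, between positions 52427928 and 53977678 of GRCm38. They fall into 21 sequence subgroups and, when copies with the same number are counted once, 49 numbered segments. Their coding lengths run from 310 to 377 bases. The other 36 annotated Trav genes comprise 20 pseudogenes and 16 functional genes. Of those 16, 15 have a coding sequence that is identical letter for letter to that of a listed copy, so that the listed name stands for both genes. Trav14d-1, for instance, also stands for Trav14n-1, Trav12d-3 for Trav12n-3, Trav13d-2 for Trav13n-2, Trav7d-5 for Trav7n-5 and Trav15d-2-dv6d-2 for Trav15n-2.

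Short reads can be assigned to a segment only where its sequence differs from the others. Of the 31-base words in a listed coding sequence, a median of 33% occurred in no other listed Trav gene, and 5 segments had no such word. The 8 segments made up entirely of such words were Trav1, Trav2, Trav5-1, Trav17, Trav18, Trav19, Trav21-dv12 and Trav23. The first 300 coding bases of the segments that reached the highest and the next highest share of any library are shown to make this visible, with capitals for the bases covered by at least 1 such word.
Trav14d-1: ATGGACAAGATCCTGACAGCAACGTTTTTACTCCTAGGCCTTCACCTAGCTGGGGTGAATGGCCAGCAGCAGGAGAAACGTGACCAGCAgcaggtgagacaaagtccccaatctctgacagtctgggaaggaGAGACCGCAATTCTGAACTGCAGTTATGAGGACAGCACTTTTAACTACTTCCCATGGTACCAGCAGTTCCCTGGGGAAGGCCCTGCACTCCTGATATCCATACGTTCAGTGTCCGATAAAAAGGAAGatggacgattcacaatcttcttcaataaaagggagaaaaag
Trav7-4: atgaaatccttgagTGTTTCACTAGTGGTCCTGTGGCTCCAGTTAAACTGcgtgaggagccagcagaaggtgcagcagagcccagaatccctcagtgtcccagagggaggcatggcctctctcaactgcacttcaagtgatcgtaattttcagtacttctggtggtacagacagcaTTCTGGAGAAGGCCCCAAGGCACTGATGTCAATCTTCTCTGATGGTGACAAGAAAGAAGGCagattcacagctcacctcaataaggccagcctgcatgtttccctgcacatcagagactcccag
In Trav14d-1, on the plus strand at chr14:52855614-52856166, 216 of 364 coding bases were of this kind, all of them in the stretch shown. In Trav7-4, on the plus strand at chr14:53461099-53461738, this held for 97 of 341. Reads from the lower-case stretches have to be divided between copies by the quantifier, so the counts of single copies are estimates and a sum over copies is less affected.

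The differences between near copies are few. A stretch of 60 coding bases of the Trav14 subgroup, the one with the most differences, is shown from coding base 188 on, with capitals where a copy differs from Trav14d-1.
Trav14d-1: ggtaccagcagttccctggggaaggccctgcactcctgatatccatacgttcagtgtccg
Trav14-1: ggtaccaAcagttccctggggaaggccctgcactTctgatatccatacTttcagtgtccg
Trav14-2: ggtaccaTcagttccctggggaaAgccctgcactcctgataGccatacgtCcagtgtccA
Trav14d-2: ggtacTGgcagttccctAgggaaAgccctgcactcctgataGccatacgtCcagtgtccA
Over the whole coding sequence, Trav14-1 differed from Trav14d-1 at 16 of 364 bases, Trav14-2 at 13 and Trav14d-2 at 11. Copies of Trav7-4 were closer still, as the first 60 coding bases show, with capitals where a copy differs from Trav7-4.
Trav7-4: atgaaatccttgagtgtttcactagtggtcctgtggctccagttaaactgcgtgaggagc
Trav7d-4: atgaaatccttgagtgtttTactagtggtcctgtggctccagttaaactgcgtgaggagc
Trav7n-4: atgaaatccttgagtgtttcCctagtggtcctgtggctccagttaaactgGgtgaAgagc
Trav7d-4 differed from Trav7-4 at 2 of 341 coding bases, an identity of 99.4%, and Trav7n-4 at 7, an identity of 97.9%.

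The last coding bases of a Trav gene carry the codon of the conserved cysteine at which the third complementarity-determining region begins, and joining to Traj takes place just after them. The last 48 bases are shown for the 6 segments that led a library and for 3 segments that recur in the results, with the cysteine codon in capitals.
Trav14d-1: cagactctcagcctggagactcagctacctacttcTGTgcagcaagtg
Trav7-4: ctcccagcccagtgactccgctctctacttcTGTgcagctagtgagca
Trav7d-2: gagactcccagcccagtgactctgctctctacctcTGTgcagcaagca
Trav6d-6: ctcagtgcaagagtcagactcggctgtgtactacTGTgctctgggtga
Trav12d-3: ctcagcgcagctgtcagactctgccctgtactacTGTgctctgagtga
Trav13d-2: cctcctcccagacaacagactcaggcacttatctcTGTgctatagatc
Trav1: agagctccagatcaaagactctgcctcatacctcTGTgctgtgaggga
Trav11: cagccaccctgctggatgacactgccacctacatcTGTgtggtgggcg
Trav21-dv12: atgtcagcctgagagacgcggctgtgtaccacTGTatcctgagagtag
Such a codon, in frame and following a tyrosine codon by 1 codon, was found in the last 48 coding bases of 91 of the 92 listed segments, with 7 to 16 bases after it. The exception was Trav23, which was near 0 counts in these libraries. All sequences are GENCODE M21 transcripts cut to their coding part.

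The libraries held 14441262 to 31447335 estimated counts in listed genes. Between 8944 and 18348 of these were assigned to Trav genes, or 0.0505% to 0.0965% of a library. IgG library 2 and anti-PD1 library 3 stood apart from the rest, with 1896 and 1248 of the 13178 tested genes at 0 counts against 224 to 822 in the other 7 libraries. The Trav sum, its ratios to the constant genes, the largest share, the evenness, the spread of shares, the counts of segments without overlap and the correlations with Trac are therefore also given without them. The CD45 gene Ptprc was counted in all libraries, at 1719 to 2913 CPM, a unit that scales counts to a common library size, here with TMM factors, and 7 melanoma markers summed to 0.376 to 14.1 CPM.

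Summed over the 92 segments, Trav expression was 628, 862 and 731 CPM in IgG libraries 1, 2 and 3. It was 664, 498 and 504 CPM in anti-B7-H3 libraries 1, 2 and 3, and 562, 535 and 766 CPM in anti-PD1 libraries 1, 2 and 3. The means were 741 ± 117 CPM for IgG, 555 ± 93.9 for anti-B7-H3 and 621 ± 127 for anti-PD1 (SD, n = 3), and the groups overlapped. The log2 ratio of the group mean to that of IgG was -0.42 for anti-B7-H3 and -0.25 for anti-PD1, and without IgG library 2 and anti-PD1 library 3 these ratios were -0.29 and -0.31. In bulk RNA, fewer T cells and less receptor RNA per T cell cannot be told apart.

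Trac, the constant gene of the alpha chain, moved with the Trav sum. It stood at 884, 1339 and 996 CPM in the IgG libraries, at 826, 659 and 617 CPM with anti-B7-H3, and at 695, 667 and 1109 CPM with anti-PD1. All anti-B7-H3 libraries lay below all IgG libraries, while anti-PD1 overlapped both groups. In the fit across all genes neither difference from IgG passed the test, at a log2 fold change of -0.62 ± 0.25 (SE, edgeR adjusted p = 0.51) for anti-B7-H3 and -0.38 ± 0.25 (edgeR adjusted p = 0.659) for anti-PD1.

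Per Trac count, the Trav genes gave 0.711, 0.644 and 0.734 counts in the IgG libraries. The ratio was 0.804, 0.756 and 0.817 with anti-B7-H3, above all IgG libraries, and 0.808, 0.802 and 0.691 with anti-PD1, which overlapped IgG. The lowest anti-PD1 value belonged to library 3 and the lowest IgG value to library 2, the libraries with the most genes at 0. On a log2 scale the group mean was 0.19 above that of IgG for anti-B7-H3 and 0.14 above it for anti-PD1, and 0.13 and 0.16 above it without those 2 libraries. Against the summed beta chain constant genes Trbc1 and Trbc2 the order changed: the means were 0.402 ± 0.101 for IgG, 0.318 ± 0.0271 for anti-B7-H3 and 0.436 ± 0.0874 for anti-PD1 (SD, n = 3). Without IgG library 2 and anti-PD1 library 3 the IgG and anti-PD1 means were 0.356 and 0.385, in the same order.

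**Figure D1:**
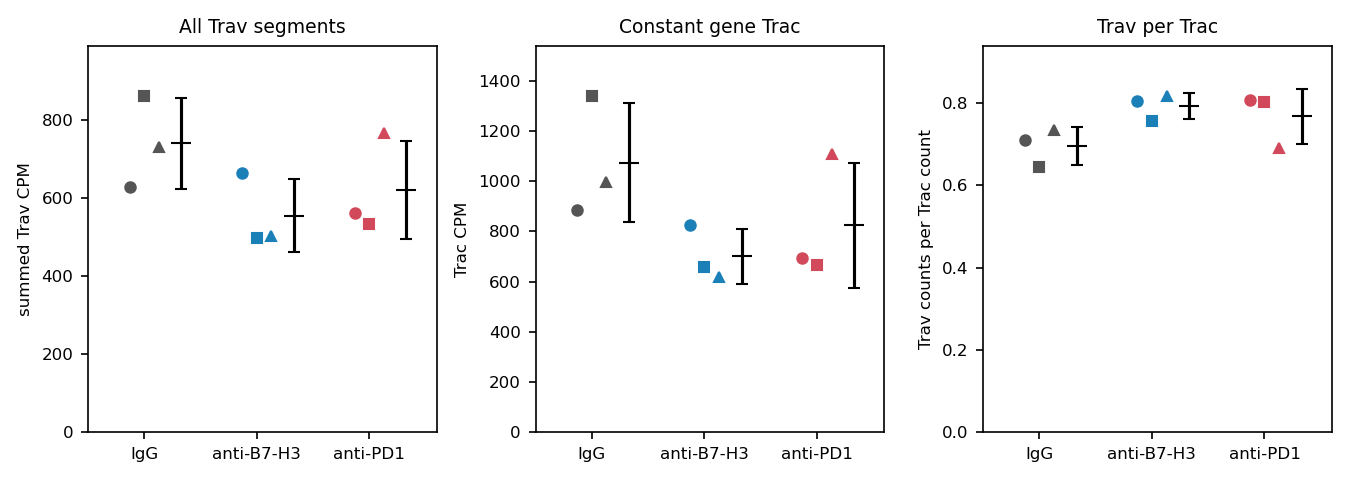
Summed Trav CPM (left), Trac CPM (middle) and Trav counts per Trac count (right) in each of the 9 libraries, with black bars for the group mean ± SD (n = 3) and circles, squares and triangles for replicates 1, 2 and 3. The Trav sum ran from 498 to 862 CPM and the groups overlapped, while the 3 anti-B7-H3 ratios of Trav to Trac, 0.756 to 0.817, lay above the 3 IgG ratios.

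The T cell genes around the receptor did not pass the test either. Of 8 genes, those of the alpha and beta constant regions, the CD3 and zeta chains and Trat1, a receptor-associated adaptor, 0 were called in any comparison by edgeR. Of all tested genes 0.85% were called for anti-B7-H3 against IgG, 1.74% for anti-PD1 against IgG and 0% for anti-B7-H3 against anti-PD1, so that in lists of this size a count of 0 lies near the background. The 8 genes had a median log2 fold change of -0.29 for anti-B7-H3 and -0.36 for anti-PD1 against IgG, where the median of all tested genes was 0.02 and -0.04. The same held for 0 of 15 coreceptor and signalling genes (medians -0.27 and -0.31). Cd3e, a signalling chain of the receptor complex, averaged 742, 599 and 588 CPM in IgG, anti-B7-H3 and anti-PD1. Cd4 averaged 252, 178 and 204 CPM, and Cd8a 157, 167 and 99.0 CPM. Of the 4 genes of V(D)J recombination, 1 was tested and it was not called. Gamma-delta T cell genes gave 0 calls of 7, and Trdc, the constant gene of the delta chain, averaged 55.8, 78.3 and 60.7 CPM.

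Markers of myeloid cells differed between the groups in the same libraries. Of 9 macrophage markers, 7 were higher than in IgG in each treated group (edgeR adjusted p under 0.05), against 0.827% and 1.72% of all tested genes called higher. Genes called lower made up 0.0228% and 0.0152% of all tested genes, and none of these markers was among them. Their summed level was 120 to 299 CPM in IgG, 1673 to 2612 CPM in the anti-B7-H3 libraries and 1202 to 1803 CPM in the anti-PD1 libraries. Of 5 neutrophil markers, 3 and 4 were higher, with sums of 59.9 to 99.0, 212 to 404 and 583 to 863 CPM. The 8 natural killer cell markers gave 0 calls, with a median log2 fold change of 0.98 for anti-B7-H3 and 0.59 for anti-PD1 against IgG and sums of 424 to 1532, 1837 to 2409 and 1357 to 1938 CPM in IgG, anti-B7-H3 and anti-PD1. The 7 B cell markers also gave 0 calls, with medians of 2.17 and 1.11 and sums of 25.5 to 85.0, 57.9 to 448 and 47.2 to 126 CPM. The part of these cells in the lower Trav CPM of the treated groups was not tested. Shares of the Trav total, used from here on, compare segments only with each other.

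No segment dominated the Trav RNA of these tumours. An even use of 92 segments would give each 1.09%. The highest mean share over the 9 libraries was 3.94% (Trav14d-1), the 12 leading segments held 31.9% together, and 46 segments had a mean share of at least 1%. At the other end, 26 segments averaged under 0.5%. Trav11d, Trav15n-1 and Trav7-2 were at 0 in all libraries. The coding sequence of each of these is contained in, or contains, that of a listed copy. In all, 71 segments were counted in every library.

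Shares are of estimated counts, and the order hardly changes per length, since the coding lengths are alike. Of the 12 leading segments by counts, 10 were also among the 12 leading by TPM (a value per transcript length), and the first 6 stood in the same order. These were Trav14d-1, Trav7-4, Trav7d-2, Trav3d-3, Trav6d-6 and Trav12d-3.

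**Figure D2:**
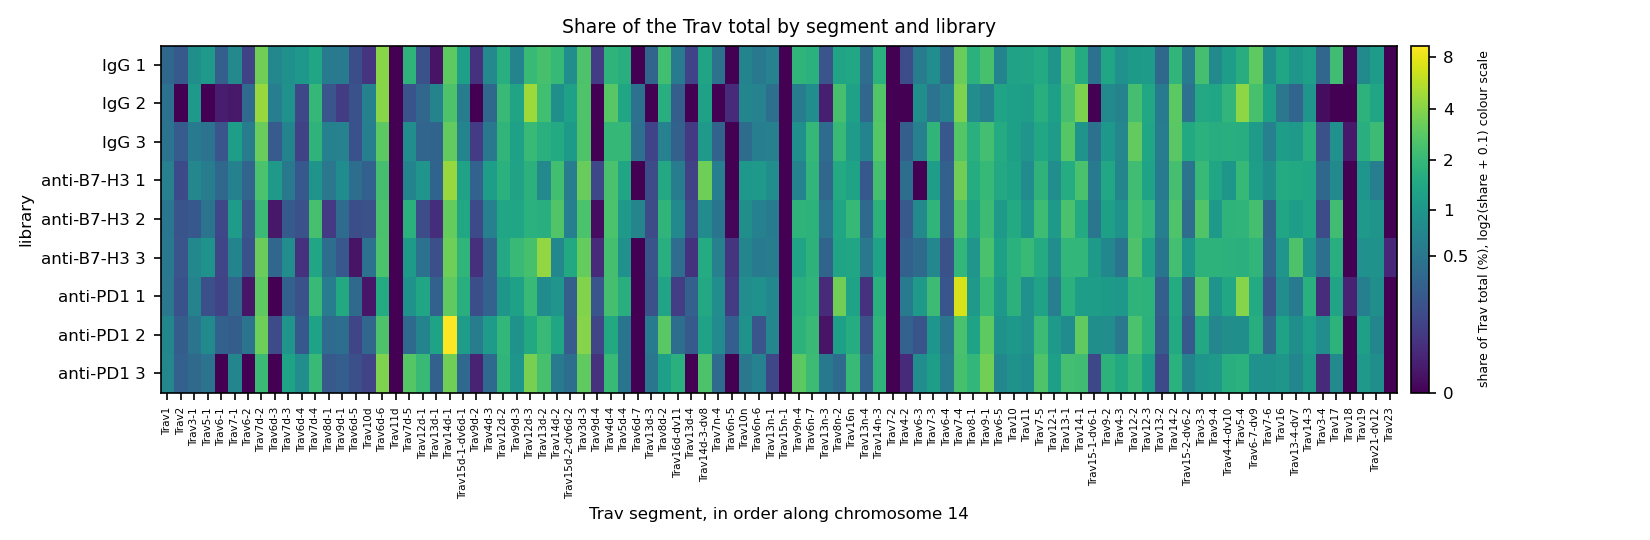
Share of the Trav total for each of the 92 listed segments (columns, in their order along chromosome 14) in the 9 libraries (rows), coloured on a log2(share + 0.1) scale. Counts are spread over the whole locus in every library, and the brightest cells are Trav14d-1 in anti-PD1 library 2 (9.37%) and Trav7-4 in anti-PD1 library 1 (7.14%).

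The leading segment differed between libraries. In IgG libraries 1, 2 and 3 it was Trav6d-6 (4.09%), Trav12d-3 (4.76%) and Trav7d-2 (3.23%). With anti-B7-H3 it was Trav14d-1 in libraries 1 and 2 (4.57% and 3.10%) and Trav13d-2 in library 3 (4.44%). With anti-PD1 it was Trav7-4 (7.14%), Trav14d-1 (9.37%) and Trav6d-6 (3.85%). Thus 2 of 3 anti-PD1 libraries held a segment above the largest share of any other library, 4.76%, and the third did not. The mean of the largest share was 4.02 ± 0.764% in IgG, 4.04 ± 0.809% for anti-B7-H3 and 6.79 ± 2.78% for anti-PD1 (SD, n = 3). Anti-PD1 exceeded IgG by 2.76 percentage points with all libraries and by 4.6 without IgG library 2 and anti-PD1 library 3.

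Trav14d-1 had the highest share of any segment in a single library. Its share was 2.96%, 2.54% and 3.08% in the IgG libraries, 4.57%, 3.10% and 3.38% with anti-B7-H3, and 3.01%, 9.37% and 3.45% with anti-PD1. The value in anti-PD1 library 2 came from 1357 estimated counts (exact 95% interval 8.91% to 9.86%, counting error only), 3.03 times the median of the other libraries. Summed with Trav14-1, the listed copy of the same number though not the closest in sequence, the share was 12.4% there and 4.03% to 7.04% elsewhere. Over the whole Trav14 subgroup, anti-PD1 library 2 stood at 19.6%, close to anti-B7-H3 library 1 at 18.8%, and the other 7 libraries at 11.6% to 15.0%. Over the groups, the log2 fold change of Trav14d-1 was 0.57 ± 0.41 (SE) for anti-PD1 against IgG, short of the threshold (edgeR adjusted p = 0.703).

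Trav7-4 behaved alike in another library. Its share was 3.23%, 3.86% and 2.76% in IgG, 3.43%, 2.66% and 1.93% with anti-B7-H3, and 7.14%, 2.47% and 2.43% with anti-PD1. Anti-PD1 library 1 alone was high, with 1167 estimated counts (exact 95% interval 6.75% to 7.54%). The sum of Trav7-4, Trav7d-4 and Trav7n-4 was 10.02% there and 3.89% to 5.82% in the other 8 libraries. The other 2 anti-PD1 libraries lay within the range of IgG and anti-B7-H3.

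IgG library 2 was high for several segments at once. It held 4.76% Trav12d-3, against 1.48% to 3.65% in the other libraries, and 4.24% Trav5-4, a segment that was also high in anti-PD1 library 1 (4.07%) and lay between 0.864% and 2.00% in the other 7. It held 3.75% Trav14-1, against 0.949% to 3.01% elsewhere. In the same library 15 of the 92 segments were at 0, against 5 to 11 in the others. Trav17, Trav2 and Trav5-1, which have no near copy, were at 0 there and counted in all other libraries. For Trav17 the other shares ran from 0.76% to 2.25%, and a count of 0 in IgG library 2 allows a share of up to 0.0215% (3 counts of its Trav total).

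**Figure D3:**
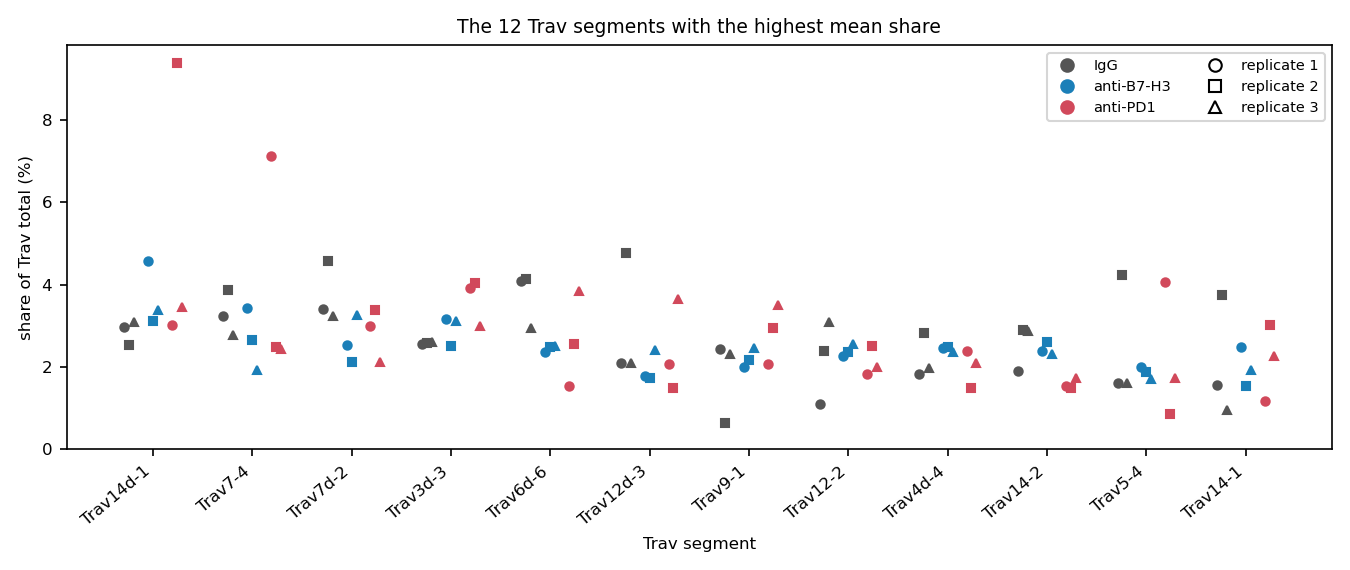
Share of the Trav total (%) for the 12 segments with the highest mean share, in each library, coloured by group and shaped by replicate. Most segments lie between 1% and 4% in all groups, with single high libraries at Trav14d-1 (anti-PD1 2) and Trav7-4 (anti-PD1 1). Trav12d-3 and Trav14-1 were highest in IgG 2, and Trav12d-3 also held 3.65% in anti-PD1 3.

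Replicates of the same treatment differed far more than counting error. Over the 46 segments with a mean share of at least 1%, the variance of the share between replicates, averaged over the 3 groups, was a median of 22.1 times the variance that counting gives, with a range of 7.15 to 162. With IgG library 2 and anti-PD1 library 3 left out the median was 18.7 times, and the ratio was above 1 for 45 of the 46. The median coefficient of variation over the 9 libraries was 31.6%. The highest share of a segment lay in an IgG library for 17 of the 46, in an anti-B7-H3 library for 12 and in an anti-PD1 library for 17, with 10 of these in IgG library 2.

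Of these segments, those counted in all 9 libraries were ranked by the SD of their log2 share. The largest SDs were those of Trav7d-5, Trav8n-2, Trav13d-2 and Trav13-4-dv7. Trav17, at 0 in IgG library 2, was not ranked. Trav7d-5 ranged from 0.223% in IgG library 2 to 2.75% in anti-PD1 library 3. Trav8n-2 was lowest in anti-PD1 library 3 (0.393%) and highest in anti-PD1 library 1 (3.4%). Trav13d-2 was lowest in anti-B7-H3 library 1 (0.75%) and highest in anti-B7-H3 library 3 (4.44%). For the last 2 segments named, the extremes lay within a single treatment group.

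The evenness of use was expressed as the effective number of segments, the exponential of the Shannon entropy of the shares, which would be 92 if all were used equally. It was 65.7, 54.2 and 66.6 in the IgG libraries, 66.5, 65.2 and 64.7 with anti-B7-H3, and 59.6, 59.98 and 60.3 with anti-PD1. The 3 anti-PD1 libraries lay below the 3 anti-B7-H3 libraries, with means of 59.97 ± 0.391 and 65.5 ± 0.918 (SD, n = 3). Both lay within the range of the IgG libraries, whose mean was 62.2 ± 6.94 (SD, n = 3) and whose lowest value belonged to library 2. Without IgG library 2 and anti-PD1 library 3, anti-PD1 was 6.37 below IgG and anti-B7-H3 was 0.692 below it. When copies of a numbered segment were summed, the values were 35.8 ± 0.724 with anti-B7-H3, 33.2 ± 1.00 with anti-PD1 and 35.0 ± 3.48 in IgG (SD, n = 3).

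**Figure D4:**
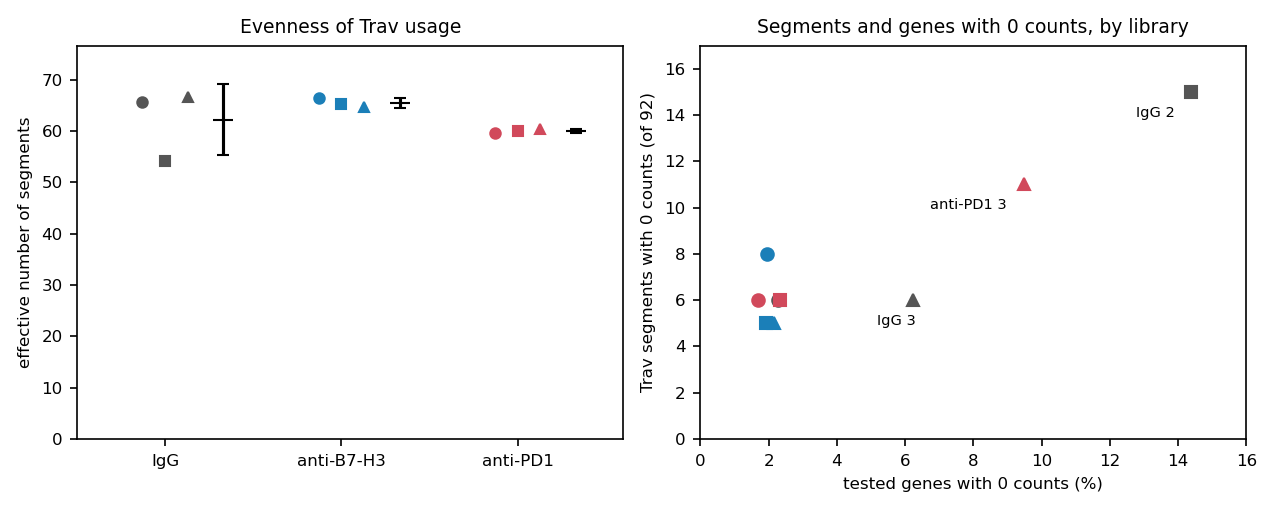
Left, effective number of Trav segments in each library with the group mean ± SD (n = 3). Right, number of the 92 segments with 0 counts against the share of tested genes with 0 counts (%), 1 point per library, with the same colours and shapes; IgG 2 and anti-PD1 3 have the most 0 values on both axes.

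Grouped by sequence, the Trav7 subgroup (11 listed segments) held the most RNA, a mean of 14.8% of the Trav total, followed by Trav14 (7 segments, 14.5%), Trav6 (14 segments, 10.9%), Trav12 (6 segments, 9.53%), Trav9 (8 segments, 8.19%) and Trav13 (10 segments, 7.66%). Subgroups with a single segment lay between 0.00747% (Trav23) and 1.30% (Trav17). The coefficient of variation over 9 libraries was 12.2% for Trav7, 19.4% for Trav14, 13.1% for Trav6 and 17.1% for Trav12. The share of the Trav6 subgroup was 13.3%, 12.8% and 10.9% in IgG, 10.7%, 10.97% and 9.51% with anti-B7-H3, and 9.06%, 9.76% and 10.8% with anti-PD1, so that all anti-PD1 libraries lay below all IgG libraries. The Trav9 subgroup held 7.89%, 4.80% and 7.87% in IgG, 8.05%, 8.21% and 8.80% under anti-B7-H3 and 8.95%, 8.37% and 10.7% under anti-PD1, all treated libraries above all IgG libraries. In all, 5 of the 21 subgroups did not overlap between anti-B7-H3 and IgG (Trav9, Trav10 and Trav1 higher, Trav5 and Trav21 lower), 5 between anti-PD1 and IgG (Trav9 and Trav1 higher, Trav6, Trav11 and Trav21 lower) and 0 between the treated groups. For CPM of single genes, 15.4%, 16.5% and 13.5% of all tested genes did not overlap in these comparisons. The 10 segments with delta chain names together held 8.20% to 14.6% of a library's Trav total.

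**Figure D5:**
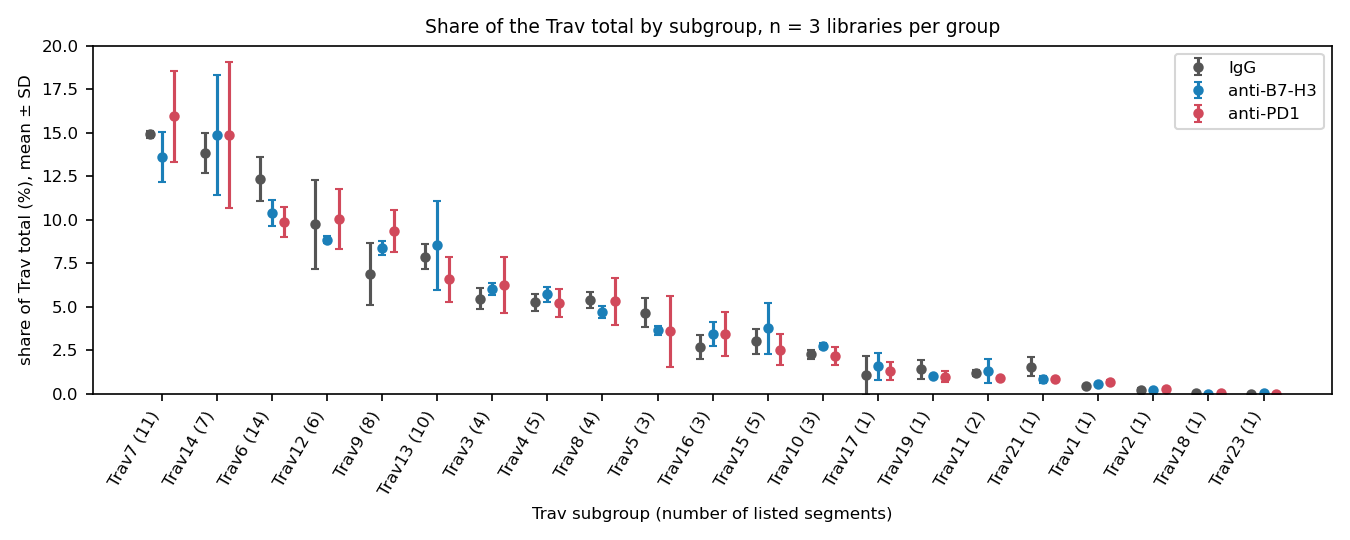
Share of the Trav total (%) for the 21 Trav subgroups as mean ± SD over 3 libraries in each treatment group, with the number of listed segments in brackets. Trav7 and Trav14 lead with mean shares of 14.8% and 14.5%, and the bars of the groups overlap for most subgroups.

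Each segment was then tested between the treatment groups in the fit across all genes. Of the 92 segments, 87 passed the filter on low counts. None passed the edgeR test at an adjusted p of 0.05 in any comparison, where 0.85% of all tested genes passed for anti-B7-H3 against IgG, 1.74% for anti-PD1 against IgG and 0% for anti-B7-H3 against anti-PD1. DESeq2 also called 0 segments in each. At an unadjusted edgeR p under 0.05, 3 segments differed for anti-B7-H3 against IgG (all lower), 6 for anti-PD1 against IgG (5 lower, 1 higher) and 1 for anti-B7-H3 against anti-PD1, against 8.81%, 10.9% and 3.23% of all tested genes. DESeq2 gave 3, 9 and 1. The smallest adjusted p of a segment was 0.408, 0.308 and 1.00, and the median standard error of a log2 fold change was 0.63 in each comparison.

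Single segments leaned lower in CPM in the treated groups, as their sum did. Of the 87, 65 had a negative log2 fold change for anti-B7-H3 against IgG (median -0.28, against 0.02 over all genes), and 57 for anti-PD1 against IgG (median -0.20, against -0.04). The IgG libraries are shared by both comparisons. For 9 segments all anti-B7-H3 libraries lay below all IgG libraries and for 0 above, where 5.48% and 9.96% of all tested genes did so. For anti-PD1 against IgG these counts were 10 below and 2 above, against 6.53% and 10% of all genes. Without IgG library 2 and anti-PD1 library 3, which leaves smaller groups, the counts were 13 below and 0 above for anti-B7-H3 (8.98% and 12.6% of all genes) and 29 below and 9 above for anti-PD1 (19.4% and 20.4% of all genes). Between anti-B7-H3 and anti-PD1, 51 of 87 were negative (median -0.20, against 0.04), and without IgG library 2 and anti-PD1 library 3 the median was 0.07.

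Trav21-dv12 was among the 3 segments with the smallest p for anti-B7-H3 against IgG, and has no near copy. Its level was 7.02, 11.8 and 15.9 CPM in the IgG libraries, 4.02, 4.72 and 4.69 with anti-B7-H3, and 4.88, 3.77 and 6.60 with anti-PD1. All treated libraries lay below all IgG libraries. As a share of the Trav total it was 1.12% to 2.17% in IgG, 0.606% to 0.948% in the anti-B7-H3 libraries and 0.704% to 0.868% in the anti-PD1 libraries. The log2 fold change was -1.37 ± 0.52 (SE, edgeR adjusted p = 0.452) for anti-B7-H3 and -1.18 ± 0.51 (edgeR adjusted p = 0.431) for anti-PD1 against IgG, and neither passed the test.

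The other 2 segments of this kind were Trav7d-2 and Trav6d-6. Trav7d-2 stood at 21.4, 39.4 and 23.6 CPM in IgG, at 16.8, 10.5 and 16.5 under anti-B7-H3 and at 16.8, 18.1 and 16.2 with anti-PD1, so that IgG did not overlap the treated groups. Its log2 fold change was -0.95 ± 0.34 (SE, edgeR adjusted p = 0.408) for anti-B7-H3 and -0.72 ± 0.33 (edgeR adjusted p = 0.471) for anti-PD1. Its share of the Trav total did overlap, at 3.23% to 4.57%, 2.11% to 3.27% and 2.12% to 3.38%. Trav6d-6 stood at 25.7, 35.5 and 21.4 CPM in IgG, 15.6, 12.3 and 12.6 under anti-B7-H3 and 8.67, 13.6 and 29.5 with anti-PD1. The single high anti-PD1 value came from library 3. Trav6d-6 stands also for Trav6-6, which has the same coding sequence. The coding sequence of Trav7d-2 contains that of Trav7-2, which was at 0 in all libraries. Only 0.326% of the 31-base words of Trav7d-2 occur in no other listed Trav gene, so its values can hold reads of both.

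For anti-PD1 against IgG the smallest p belonged to Trav15d-2-dv6d-2, which can also serve in a delta chain. It stood at 5.23, 10.7 and 7.99 CPM in IgG, 3.92, 3.05 and 7.52 with anti-B7-H3, and 1.65, 1.45 and 3.23 with anti-PD1. The anti-PD1 libraries were all below IgG, at a log2 fold change of -1.92 ± 0.69 (SE, edgeR adjusted p = 0.308). Trav14-2, the next, stood at 11.9, 25.1 and 21 CPM in IgG and 8.61, 7.89 and 13.2 with anti-PD1, with overlap (log2 fold change -0.96 ± 0.39, edgeR adjusted p = 0.388).

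Trav6d-7 was also among the 3 segments with the smallest p for anti-PD1 against IgG. It was at 0 in all anti-PD1 libraries and in 3 of the other 6, and at 3.95 CPM in IgG library 2, 3.14 in IgG library 3 and 3.45 in anti-B7-H3 library 2. No 31-base word of its coding sequence, nor of that of Trav6n-7, is found in that segment alone. The part of the division of reads between copies in these values was not tested. Summed over the copies numbered 6-7, the share was 3.52% to 4.69% in IgG, 3.05% to 4.85% under anti-B7-H3, and 3.10% to 3.67% under anti-PD1, and these ranges overlap.

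Between anti-B7-H3 and anti-PD1 the smallest p belonged to Trav6d-7, and the next to Trav13-4-dv7 and Trav9n-4. Trav13-4-dv7 was at 9.86, 5.89 and 12.9 CPM under anti-B7-H3 and 3.03, 4.58 and 5.38 with anti-PD1, without overlap. Its log2 fold change was 1.14 ± 0.59 (SE, edgeR adjusted p = 1.00). Trav9n-4 was at 4.45, 9.05 and 6.64 CPM under anti-B7-H3 and 9.38, 9.63 and 22.5 with anti-PD1, also without overlap, at a log2 fold change of -1.04 ± 0.53 (edgeR adjusted p = 1.00). Only 10.3% of the 31-base words of Trav13-4-dv7 and of Trav9n-4 occur in no other listed Trav gene. Summed over the copies numbered 9-4, the share was 2.22%, 2.89% and 3.19% under anti-B7-H3. With anti-PD1 it was 2.86%, 2.68% and 4.09%, so these overlap, as did the shares of Trav9n-4 alone. The copies numbered 13-4 held 1.88%, 1.73% and 3.18% under anti-B7-H3, above the 0.934%, 1.33% and 1.02% with anti-PD1. The part of read division between copies was not tested. In CPM, 2 of 87 segments were higher and 3 lower without overlap, where 7.11% and 6.4% of all tested genes were, 13.5% in either direction. Without the 2 libraries that stood apart these counts were 9 and 7, against 11.2% and 11.3% of all genes.

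Shares, which set each segment against the Trav total of its own library, separated 10 of 87 segments between anti-B7-H3 and IgG (11.5%), 11 between anti-PD1 and IgG (12.6%) and 6 between anti-B7-H3 and anti-PD1 (6.9%). For CPM over all tested genes, the percentages without overlap were 15.4%, 16.5% and 13.5%. In the 7 libraries other than IgG library 2 and anti-PD1 library 3, 19, 31 and 15 segments were separated in share, against 21.6%, 39.8% and 22.5% of all genes in CPM. Trav1 and Trav21-dv12 were separated from IgG in both treated groups, Trav1 upwards and Trav21-dv12 downwards. No test was made of a share.

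Of the segments of invariant T cells, Trav1 lay below the even share of 1.09% in all libraries, and Trav11 averaged 1.11%. Trav1 held 0.367%, 0.452% and 0.469% of the Trav total in the IgG libraries, 0.626%, 0.501% and 0.514% with anti-B7-H3, and 0.506%, 0.712% and 0.723% with anti-PD1. All 6 treated libraries lay above all 3 IgG libraries in share. In CPM the groups overlapped, at 2.31 to 3.90, 2.49 to 4.16 and 2.84 to 5.54 CPM, and the log2 fold changes were -0.06 ± 0.73 (SE, edgeR adjusted p = 0.993) for anti-B7-H3 and 0.34 ± 0.73 (edgeR adjusted p = 0.917) for anti-PD1 against IgG. Each value rests on 46 to 133 counts. Traj33, the partner of Trav1 in mucosal-associated invariant T cells, was at 0 in 8 of 9 libraries. All 51 Traj rows together held only 45 to 132 counts per library, so a count of 0 says little. The Trav1 counts can therefore not be assigned to those cells here.

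Trav11 held 1.33%, 1.19% and 0.972% of the Trav total in IgG, 0.805%, 0.996% and 2.06% with anti-B7-H3, and 0.907%, 0.899% and 0.818% with anti-PD1. Anti-B7-H3 library 3 was the only library above 1.33%, and the anti-PD1 libraries lay below IgG. Its copy Trav11d was at 0 throughout, but no 31-base word of Trav11d is found in that segment alone. The values of Trav11 can therefore hold reads of both. Traj18, the partner of Trav11 in invariant natural killer T cells, had 9 to 50 counts per library and was the most counted of the 51 Traj rows, which held 45 to 132 counts per library in all. Zbtb16, the transcription factor of invariant T cells, was at 0 in IgG library 3 and anti-PD1 library 3 and at 8.54 CPM in IgG library 2. Of 8 genes listed for invariant T cells, 7 were tested and 0 called in each comparison, where 0.85%, 1.74% and 0% of all tested genes were. They are not all particular to these cells: the list includes Cd1d1, Mr1 and Klrb1c, and Klrb1c was also a natural killer cell marker here.

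Across the 9 libraries, the segments whose log2(CPM + 1) followed that of Trac most closely were Trav7-6 (Pearson r = 0.93), Trav6d-6 (r = 0.91) and Trav12d-3 (r = 0.91). The 9 points share library preparation and depth with Trac, and IgG library 2 and anti-PD1 library 3 were the highest in Trac. Over the 7 libraries without them, r was 0.86, 0.79 and 0.71.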

How the data were processed

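RNA was sequenced from CD45+ sorted cells in 9 libraries, after SMART-Seq v4 amplification, ribosomal RNA depletion and Nextera XT library construction, per the labels' protocols, in kits that do not mark strand. Per the submitters' processing notes the genome build was GRCm38 and reads were inspected with FastQC 0.11.8. The name of the quantifier is not given in the sources used here. The deposited tables list estimated counts, not normalised, for 58083 transcripts, and the authors' TPM values beside them, per the file headers. Lengths were multiples of 3 for 87.3% of rows and are taken as coding lengths. Reads carry no molecular identifiers, so intervals and floors of 3 counts cover counting error only.

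GENCODE M21 matched 57409 transcripts (57105 in the same version), and 674 were left out. Estimated counts were summed per gene and rounded for the fit. All 9 libraries entered 1 edgeR 4.0.16 fit (R 4.3.3, filterByExpr, TMM, robust quasi-likelihood test, no covariate), with p-values adjusted by Benjamini and Hochberg over 13178 genes. The SE of an edgeR log2 fold change was derived as its absolute value divided by the square root of the quasi-likelihood F statistic. Sums, ratios, shares and effective numbers have no test. Simulated data gave 12%, 42%, 68% and 72% recovery of 50 genes each at 2-, 4-, 8- and 16-fold changes for anti-B7-H3 against IgG among 12778 genes, with 2 false calls. These percentages are not split into increases and decreases, so the recovery of a 2-fold decrease cannot be read from them. Recovery among Trav segments alone was not simulated.

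The members and gene lists were chosen with earlier results of these data known. Named segments are the 12 with the highest mean share, the leader of each library, and the 3 with the smallest p in each comparison. The smallest p was used as none passed the test. Trav1, Trav11 and Trav11d, and the 3 most like Trac, were named as well. So were the 4 with the largest SD of log2 share among those of at least 1% that were counted in all libraries. Other segments were named after their values were seen. Other settings were DESeq2 1.42.0, edgeR with DESeq2 size factors or with upper-quartile factors, length-scaled TPM counts, no filter, a filter that asks for 5 CPM in 3 libraries, copies summed, immunoglobulin genes removed, only the 6 libraries compared, non-robust dispersions, a replicate block and each library left out. For the sums, ratios and evenness, other denominators and indices were used.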

Additional observations from a re-analysis of the deposited data

How the results depend on the processing

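No Trav segment passed the test under any setting, including DESeq2, each library left out and IgG library 2 and anti-PD1 library 3 left out together, the last being chosen after seeing the data. The sums, shares and evenness kept within 1 SD of their values except in 4 cases. With Trbc1 plus Trbc2 in place of Trac, the log2 ratio of Trav counts per constant count was -0.34 for anti-B7-H3 against IgG and -0.45 against anti-PD1. The difference in effective number of segments between anti-B7-H3 and anti-PD1, 5.49, was 9.64 by the inverse Simpson index and 2.62 with copies summed. The cause of these shifts was not tested. With a library left out, the log2 ratio of the Trav sum ran from -0.56 to -0.29 for anti-B7-H3 against IgG, from -0.43 to -0.13 for anti-PD1 against IgG and from -0.31 to 0.018 for anti-B7-H3 against anti-PD1. With all libraries, the difference in effective number from IgG was 3.30 for anti-B7-H3 and -2.19 for anti-PD1. Without IgG library 2, the effective number with anti-B7-H3 was 0.692 below IgG, a change of sign, and with anti-PD1 6.18 below it. Both count as within 1 SD because the SD used was that of the IgG libraries, 6.94, which includes library 2.

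Same-numbered libraries correlated at -0.12 to 0.16 in their deviations from group means, and libraries with different numbers at -0.14 to 0.12. Whether same-numbered libraries shared a batch cannot be told from these values. With the replicate block, calls over all genes went from 112 to 64 for anti-B7-H3 against IgG and from 229 to 127 for anti-PD1 against IgG, with 0 Trav calls in all 3 comparisons. The block turned the log2 fold change of Trav14d-1 to 0.011, Trav9-1 to 0.069 and Trav7d-5 to 0.32 for anti-B7-H3 against IgG, and of Trav7d-5 to 0.031 for anti-B7-H3 against anti-PD1. DESeq2 called 393, 660 and 14 genes where edgeR called 112, 229 and 0.

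Of 66 log2 fold changes of the 22 named and tested segments, none of them called, 25 changed sign in at least 1 setting. Summing copies gives no value for a single copy and was not run for these. For anti-B7-H3 against IgG, Trav14d-1 turned to 0.0078 with upper-quartile factors, 0.012 without immunoglobulin genes, 0.030 with length-scaled TPM counts and 0.0031 with only the 6 libraries compared. Length-scaled TPM counts also turned Trav9-1 to 0.012 and Trav7d-5 to 0.041 there, and Trav7-4 to 0.043 for anti-PD1 against IgG. For anti-B7-H3 against anti-PD1, Trav12-2 turned to -0.0020 with DESeq2 and to -0.0017 with its size factors. Without IgG library 2 and anti-PD1 library 3, the values for anti-B7-H3 against IgG were 0.018 for Trav14d-1, 0.056 for Trav4d-4, 0.42 for Trav14-1 and 0.098 for Trav1. Those for anti-PD1 against IgG were 0.40 for Trav7-4, -0.23 for Trav9-1, 0.33 for Trav5-4, 0.44 for Trav14-1, -1.28 for Trav7d-5 and 0.12 for Trav8n-2. Those for anti-B7-H3 against anti-PD1 were 0.28 for Trav6d-6, 0.14 for Trav12d-3, 0.048 for Trav21-dv12, 0.77 for Trav7d-5 and 0.039 for Trac.

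With each library left out in turn, the ranges that crossed 0 for anti-B7-H3 against IgG were -0.37 to 0.17 for Trav14d-1, -0.39 to 0.23 for Trav9-1, -0.51 to 0.073 for Trav4d-4, -0.92 to 0.43 for Trav14-1, -0.47 to 0.25 for Trav9n-4, -0.34 to 0.11 for Trav1 and -0.49 to 0.65 for Trav7d-5. For anti-PD1 against IgG they were -0.63 to 0.27 for Trav7-4, -1.24 to 0.19 for Trav12d-3, -1.12 to 0.34 for Trav5-4, -0.65 to 0.71 for Trav14-1 and -0.84 to 1.26 for Trav7d-5. For anti-B7-H3 against anti-PD1 they were -0.67 to 0.28 for Trav6d-6, -0.87 to 0.14 for Trav12d-3, -0.12 to 0.16 for Trav12-2, -0.12 to 0.34 for Trav4d-4, -0.80 to 0.21 for Trav5-4, -0.79 to 0.60 for Trav13d-2, -0.36 to 0.047 for Trav21-dv12, -0.068 to 0.54 for Trav11, -1.08 to 0.77 for Trav7d-5, -0.69 to 0.74 for Trav8n-2 and -0.37 to 0.039 for Trac. The fitted value of Trav6d-7, which is no bound, ran from 0.00 to 8.41.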
